A study of Homo sapiens with 8 samples.

Results

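Gene expression in Karpas 299 cells given CD153-Fc was compared with that in untreated cells of the same line, on 4 of the 8 arrays of the series, 2 in each group. Karpas 299 is an established line of anaplastic large cell lymphoma, a T cell lymphoma, and the labels describe it as positive for the receptor CD30. CD153, also called CD30 ligand, is the natural ligand of CD30, and CD153-Fc is that ligand fused to the constant part of an antibody. Every flask was cultured for 16 h in the same serum-containing medium. CD153-Fc was then added in saline to a final 10 µg/ml, and cells were harvested 8 h later. The labels do not say whether untreated flasks received saline alone. The other 4 arrays held cells given T104, an agonistic antibody to CD30, at 10 µg/ml, or both proteins. The labels call the arrays of a group biological duplicates of this 1 cell line, so the p-values measure the spread between such cultures and not between patients.

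All probes that could be measured were examined. Of 48797 probes on the array, 12543 were detected on at least 2 of the 8 arrays, and they gave 10183 features, of which 8509 were named genes, each represented by its brightest probe, and 1674 were probes without a gene symbol. Levels are normalized log2 intensities, so that a difference of 1 is a doubling, and they compare arrays for 1 gene and not genes with each other. Changes are differences between the group means with the standard error (SE) of a limma model, n = 2 arrays per group. A feature was called, and is said to have risen or fallen, when its p-value adjusted by the Benjamini-Hochberg method over all 10183 features was under 0.05.

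CD30 belongs to the receptors for tumour necrosis factor (TNF) and its relatives, and it has no death domain. When its ligand clusters it, TRAF adaptor proteins bind its tail and pass the signal to the NF-kB transcription factors, both the classical route, in which NFKB1 and RELA dimers are freed from inhibitor proteins such as NFKBIA, and the alternative route, in which the kinase MAP3K14 leads to processing of NFKB2, the partner of RELB. NF-kB dimers also switch on the genes of their own inhibitors. Anaplastic large cell lymphoma cells carry much CD30 on their surface, and Karpas 299 also makes the fusion kinase NPM1-ALK.

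The 4 arrays were first checked against the labels. ALK was at 13.10 and 13.46 in untreated cells and at 13.44 and 13.34 with CD153-Fc, and its change of 0.11 ± 0.15 was not called (limma adjusted p = 0.763). GZMB and PRF1, the granzyme and perforin genes of cytotoxic cells that this lymphoma often expresses, lay between 14.87 and 15.21 and between 12.65 and 13.07 on the same arrays. The probe of TNFRSF8, the gene of CD30 itself, was dim, at 6.49 and 6.35 in untreated cells and 6.98 and 6.82 with CD153-Fc, and was detected on 1 array of each group. Its change of 0.48 ± 0.25 was not called (limma adjusted p = 0.389). Which transcripts of TNFRSF8 this probe reports was not examined, so its low level is no check of the CD30-positive label. The markers of other cell types were mostly not measurable, with 1 of 12 B cell markers tested (BLK), 4 of 13 monocyte and macrophage markers (CSF1R, CD68, S100A8 and S100A9), 0 of 10 erythroid and platelet markers and 1 of 11 fibroblast and epithelial markers (PDGFRA). MS4A1, CD14, LYZ, COL1A1 and EPCAM were among those not tested.

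The untreated duplicates differed from each other more than the CD153-Fc duplicates did. The SD of the difference between duplicates over all features was 0.445 log2 in untreated cells, 0.243 with CD153-Fc and 0.226 with T104. Untreated duplicates lay 1 log2 or more apart for 321 features, against 22 for CD153-Fc. Such a gap between untreated duplicates occurred in 0 of the features called below, but a wide spread itself makes a call less likely. Untreated replicate 2 correlated with the CD153-Fc arrays at r of 0.987 and 0.986, above its correlation of 0.977 with untreated replicate 1. The number of detected probes was 12967 and 11796 in untreated cells and 11710 and 12493 with CD153-Fc. The model takes the same spread for all groups. Its SEs may therefore be too small for comparisons with untreated cells and too large for those between treated groups.

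CD153-Fc raised 112 features, 96 of them named genes, and lowered 28, of which 19 were named. The called features were 1.37% of all those tested, the rises 1.1% and the falls 0.275%. Rises reached larger sizes, with 68 rises and 7 falls of at least 2-fold and 13 rises and 0 falls of at least 4-fold. The median change was 1.11 among the rises and -0.85 among the falls, against 0.00 over all features (-0.0010). At an unadjusted p under 0.05 the directions were even, with 775 features higher and 751 lower. In every called feature both CD153-Fc arrays lay on the same side of both untreated arrays, but this also held for 4172 features in all, or 41.0%. A wider gap was rarer, for both CD153-Fc arrays lay at least 1 log2 above both untreated arrays in 47 features (0.462%), all of them called, and at least 1 log2 below in 1 feature (0.00982%), which was GPRIN3. This gap was set after the data were seen. RNA came from whole cultures, so a strong response of few cells and a weak one of many cannot be told apart.

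The counts of called features changed with the arrays left out. The median rise was 1.16 and 1.11 without CD153-Fc replicate 1 and 2, against 1.11 on all arrays. The median fall was -0.77 and -0.89, against -0.85. A lost call therefore does not by itself place a change on 1 array. When untreated replicate 1 was left out 268 features were called, and 2624 when untreated replicate 2 was. The counts fell to 44 and 37 when CD153-Fc replicate 1 or 2 was left out. In each case the lone array in a group was assumed to vary like the other groups. All 112 rises kept their call without either untreated array, and 42 kept it without CD153-Fc replicate 1 and 35 with the other CD153-Fc array left out. Of the falls, 22 and 27 kept it without untreated replicate 1 and 2, and 0 without either CD153-Fc array. Scaling arrays by their medians in place of their quantiles moved the median of all features to -0.19 and gave 57 rises and 33 falls, and changes on that scale are relative to that shift. A fit on the 4 arrays alone called 33 rises and 0 falls.

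**Figure D1:**
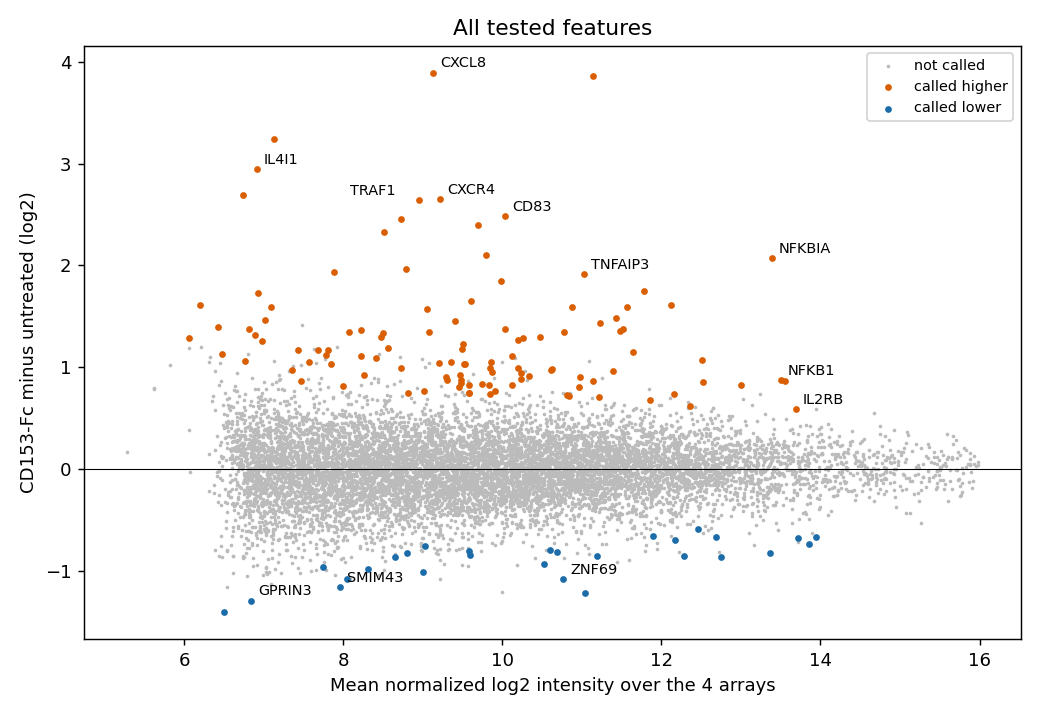
Change with CD153-Fc (log2, vertical axis) of all 10183 tested features against their mean normalized log2 intensity over the 4 arrays (horizontal axis), with 12 genes named. The 112 called rises reach 3.89 for CXCL8, while the called falls end at -1.41.

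A set of 32 rises, 29 of them named genes, stayed called with each array left out in turn and under every other setting that measured them. The named ones, in order of size, were CXCL8, IL4I1, TNFRSF9, CXCR4, TRAF1, CD83, DRAM1, RGS1, LTB, RELB, NFKBIA, NFKB2, NFE2L3, TNFAIP3, IER3, EBI3, PTGER4, NAMPT, GPR84, NINJ1, LACTB, SOD2, CD70, TP53BP2, SERPINB8, SLC2A6, GADD45A, NFKBIZ and DRC9. Their smallest change was 1.15. Of the other rises, NFKBIE, TNIP1 and BDNF stayed called with each array left out and lost their calls in the fit on 4 arrays alone (limma adjusted p of 0.0548, 0.0655 and 0.056). For further genes described below, the array whose absence ended the call is given.

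Most measured genes for NF-kB subunits and inhibitors rose. Of 11 listed, 9 were tested, and of these 6 rose and 0 fell, with a median change of 1.23 against 0.00 for all features. Over all features 1.1% rose and 0.275% fell. This list, like those below, was chosen with earlier results of these data known, so such counts are descriptions and not independent support. RELB, the subunit of the alternative route, was at 8.96 and 8.52 in untreated cells and at 10.85 on both CD153-Fc arrays, a rise of 2.11 ± 0.18 (limma adjusted p = 1.83e-05). NFKB2, its partner, was at 8.30 and 7.32 against 9.85 and 9.71 (1.97 ± 0.25, adjusted p = 0.000908). The untreated arrays of NFKB2 lay 0.98 apart, yet both were below both CD153-Fc arrays, and a dimmer NFKB2 probe rose by 1.64. NFKB1, which makes the p50 subunit of the classical route, was already bright at 12.90 and 13.22 and reached 13.94 and 13.93 (0.87 ± 0.13, adjusted p = 0.00424). That call was lost without either CD153-Fc array. RELA, the classical transactivating subunit, had 9.25 and 8.27 against 9.42 and 9.18, with untreated replicate 1 inside the CD153-Fc range (0.54 ± 0.26, adjusted p = 0.358).

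Inhibitor genes rose as well. NFKBIA, which holds NF-kB in the cytoplasm, went from 12.17 and 12.53 to 14.43 and 14.41 (2.07 ± 0.13, limma adjusted p = 1.56e-06). NFKBIE, a close relative, went from 7.96 and 8.56 to 10.00 and 9.67 (1.57 ± 0.20, adjusted p = 0.00107). NFKBIZ, an atypical nuclear member of the family, went from 8.81 and 8.97 to 10.14 and 10.11 (1.23 ± 0.16, adjusted p = 0.000931). In all of these the groups were well apart. The remaining tested members, NFKBIB and BCL3, were not called, and REL was on the array but not detected often enough to be tested. None of the 10 tested genes for IKK and related kinases was called, where 1.37% of all features were. At an unadjusted p under 0.05, 0 passed, against 7.61% of all features higher and 7.38% lower, so these counts say little. Their changes lay between -0.18 and 0.44. MAP3K14, the kinase of the alternative route, had the upper end of that range (0.44 ± 0.21, adjusted p = 0.344).

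Of 11 tested genes for CD30, TRAF adaptors and their binding partners, 4 rose and 0 fell, with a median of 0.48. Over all features the shares were 1.1% and 0.275%. TRAF1, an adaptor that binds CD30 and is itself an NF-kB target, went from 7.52 and 7.74 to 10.13 and 10.41 (2.64 ± 0.17, limma adjusted p = 1.79e-06). TRAF3, which holds the alternative route in check, went from 7.61 and 7.58 to 8.48 and 8.34 (0.82 ± 0.17, adjusted p = 0.037). The TRAF3 call held under 4 of 12 other settings. TANK, a TRAF-binding scaffold, rose by 0.70 ± 0.14 on its main probe, while a second probe of TANK was not called. TNIP1, a partner of TNFAIP3, rose by 1.18 ± 0.16. TRAF3 and TANK lost their calls without either CD153-Fc array, and under median scaling 2 members of this list were called.

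Of 9 tested ubiquitin-editing brakes on NF-kB, 3 rose and 0 fell, with a median of 0.40. The shares over all features were 1.1% and 0.275%. TNFAIP3, the A20 enzyme that ends NF-kB signalling, went from 10.17 and 9.96 to 11.98 and 11.97 (1.91 ± 0.14, limma adjusted p = 4.63e-06). CYLD, a deubiquitinase mutated in skin tumours, went from 6.95 and 7.15 to 8.05 and 8.15 (1.05 ± 0.21, adjusted p = 0.03), a call lost without either CD153-Fc array. TNIP1 was the other riser. TNFAIP3 and TNIP1 kept their calls with each array left out.

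**Figure D2:**
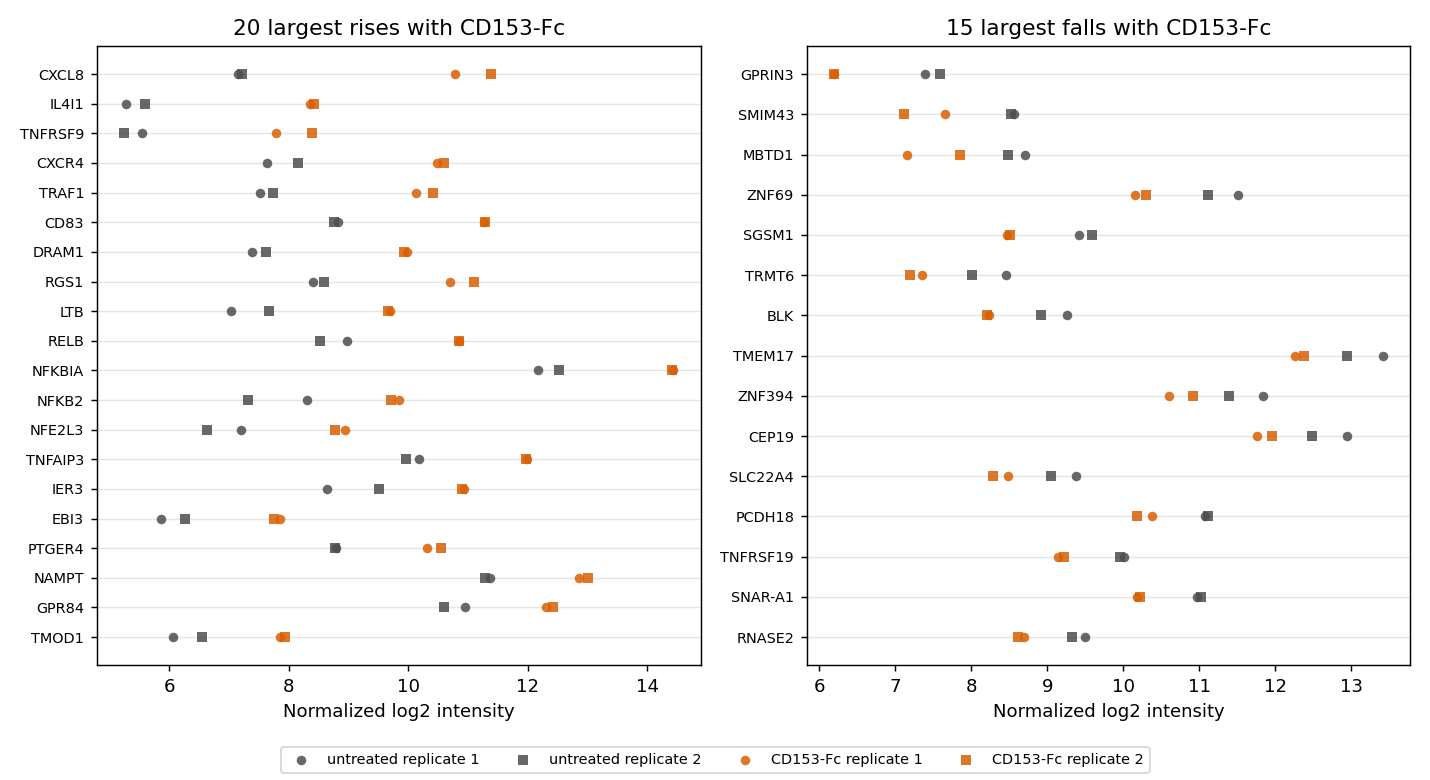
Normalized log2 intensity (horizontal axis) on each untreated array (grey) and each CD153-Fc array (orange), with circles for replicate 1 and squares for replicate 2, for named genes with the 20 largest rises and the 15 largest falls. The groups do not overlap in any row, with CXCL8 furthest apart among the rises and GPRIN3 among the falls.

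Chemokines gave the largest single change. CXCL8, the neutrophil attractant also called interleukin 8, went from 7.15 and 7.22 to 10.77 and 11.38, a rise of 3.89 ± 0.19 (limma adjusted p = 2.05e-07), and another CXCL8 probe was also called higher. CCL5, a T cell and monocyte attractant, went from 7.54 and 8.20 to 8.999 and 8.913 (1.09 ± 0.20, adjusted p = 0.0206). CXCL10, an attractant for CXCR3-bearing cells, was not detected in untreated cells (5.45 and 5.39) and was at 6.57 and 6.86 with CD153-Fc (adjusted p = 0.0102), near the detection limit, so no fold is given. Of the 4 chemokines that could be tested, out of 20 listed, these 3 rose, against 1.1% of all features. CXCL10 was detected on 1 of 2 CD153-Fc arrays and passed the detection filter only with arrays of cells given T104. The count of 3 is therefore no independent support. CCL20 had 7.22 and 7.27 against 7.89 and 7.62 and was not called (0.51 ± 0.23, adjusted p = 0.321). CCL5 and CXCL10 lost their calls without either CD153-Fc array.

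Of 9 tested interleukins and other cytokines, 2 rose, against 1.1% of all features, with a median of 0.38. EBI3, a subunit shared by interleukins 27 and 35, was not detected in untreated cells (5.86 and 6.27) and was at 7.85 and 7.74 with CD153-Fc, which makes it at least 2.10-fold higher (limma adjusted p = 0.000323). Such a bound divides the brighter group's mean by the dimmer group's, after each dim signal is raised to the lowest level detected on its array if it lies below that. IL22, a cytokine that acts on epithelia, went from 9.40 and 9.64 to 10.16 and 10.42 (0.77 ± 0.16, adjusted p = 0.0386). The IL22 call was lost without either CD153-Fc array.

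Ligands of the TNF family rose in 3 of 8 tested cases, with 0 falls and a median of 0.85. Of all features, 1.1% rose and 0.275% fell. LTB, the membrane subunit of lymphotoxin, went from 7.03 and 7.67 to 9.69 and 9.67 (2.32 ± 0.20, limma adjusted p = 2.81e-05). CD70, the ligand of CD27, went from 9.18 and 9.52 to 10.68 and 10.78 (1.38 ± 0.16, adjusted p = 0.000462). TNF itself went from 10.52 and 11.14 to 12.16 and 12.24 (1.37 ± 0.18, adjusted p = 0.00125). In each the CD153-Fc arrays were the higher pair without overlap. The TNF call was lost without CD153-Fc replicate 2 (adjusted p = 0.0516). LTA, the soluble partner of LTB, had 5.35 and 5.87 against 6.25 and 7.36, with CD153-Fc duplicates further apart than the untreated ones, and was not called (adjusted p = 0.0917). TNFSF8, the gene of CD153, was not detected often enough to be tested.

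Receptor genes moved in both directions. Among 10 tested TNF receptor genes 1 rose and 1 fell, against 1.1% and 0.275% of all features. TNFRSF9, the co-stimulatory receptor 4-1BB, was not detected in untreated cells (5.54 and 5.25) and was at 7.79 and 8.39 with CD153-Fc, at least 2.58-fold higher (limma adjusted p = 1.14e-05). TNFRSF19 went the other way, from 10.01 and 9.96 to 9.14 and 9.22 (-0.80 ± 0.16, adjusted p = 0.0315). Among 11 chemokine receptors and G protein brakes 3 rose, with a median of 0.08. CXCR4, the receptor of CXCL12 that guides homing to bone marrow, went from 7.64 and 8.15 to 10.49 and 10.59 (2.65 ± 0.21, adjusted p = 1.04e-05), and a second CXCR4 probe was also called higher. RGS1, which dampens chemokine receptor signalling in lymphocytes, went from 8.40 and 8.59 to 10.69 and 11.09 (2.40 ± 0.17, adjusted p = 3.94e-06). CCR7, the lymph node homing receptor, went from 11.70 and 12.24 to 13.15 and 12.93 (1.07 ± 0.17, adjusted p = 0.00733). The CCR7 and TNFRSF19 calls were lost without either CD153-Fc array.

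Of 19 tested interleukin receptor genes 3 rose and 0 fell, with a median of 0.19. IL21R, the interleukin 21 receptor, went from 8.25 and 9.10 to 10.15 and 10.12 (1.46 ± 0.23, limma adjusted p = 0.00653). IL2RA, the alpha chain of the interleukin 2 receptor, went from 12.36 and 12.81 to 13.30 and 13.51 (0.82 ± 0.16, adjusted p = 0.0274), while its other probe gave 0.28 and was not called. IL2RB, the beta chain, went from 13.38 and 13.41 to 13.92 and 14.05 (0.59 ± 0.12, adjusted p = 0.0281) and was the smallest called rise. All of these lost their calls without either CD153-Fc array, and under median scaling 1 of the list was called. Among 20 tested genes of the JAK, STAT and SOCS families, which carry signals from such receptors, limma called 0, with 4 higher and 2 lower at an unadjusted p under 0.05. Over all features 1.37% were called, and 7.61% were higher and 7.38% lower at that unadjusted p. The largest change in these families was that of JAK1 (0.70 ± 0.17, adjusted p = 0.0773).

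Several genes known from antigen-presenting and activated lymphoid cells rose strongly. CD83, a surface marker of mature dendritic cells and activated lymphocytes, went from 8.83 and 8.75 to 11.26 and 11.28 (2.48 ± 0.15, limma adjusted p = 1.32e-06), and another CD83 probe rose by 2.74. IL4I1, a secreted amino acid oxidase that restrains T cells, was not detected in untreated cells (5.28 and 5.60) and was at 8.35 and 8.42 with CD153-Fc, at least 3.17-fold higher (adjusted p = 1.56e-06). CD274, the checkpoint ligand PD-L1, went from 7.68 and 7.97 to 9.13 and 9.11 (1.29 ± 0.22, adjusted p = 0.00985), a call lost without either CD153-Fc array. With CCR7 these were the 4 risers among 12 tested genes of the co-stimulation and checkpoint list, whose median was 0.35. The genes of MHC class I (20 tested) and class II (11 tested) held 0 called members by limma, with 1 and 0 higher and 2 and 1 lower at an unadjusted p under 0.05. The shares over all features were 1.37% called, and 7.61% higher and 7.38% lower at that unadjusted p.

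The 19 tested genes of a broader NF-kB target list held 7 risers and 0 falls, with a median of 0.51. Of all features, 1.1% rose and 0.275% fell. Beside CXCL8, CD83 and NFKBIA, these included IER3 and SOD2. IER3, an immediate early survival gene, went from 8.63 and 9.50 to 10.93 and 10.90 (1.84 ± 0.23, limma adjusted p = 0.000727). SOD2, the mitochondrial superoxide dismutase, went from 10.61 and 10.40 to 11.74 and 12.15 (1.44 ± 0.16, adjusted p = 0.000298). The other risers were SDC4, a syndecan (1.34 ± 0.20), and TNFAIP8, an anti-apoptotic gene (0.94 ± 0.16). SDC4 lost its call without CD153-Fc replicate 2 and TNFAIP8 without either CD153-Fc array. SOD2 was the 1 riser among 20 redox genes, and TNFAIP8 the 1 riser among 9 anti-apoptotic genes.

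The promoters of the largest rises are shown here because several of these genes share a kB motif near the start of transcription. The 250 bases before the start were read from RefSeq on assembly GRCh38.p14 for 17 of the 20 largest named rises, and 7 of those hold the motif GGNNTTTCC on either strand (41.2%). The share was 23.4% of the 77 matched genes among all 96 named rises (18 genes), 6.16% of 7078 tested genes, 5.48% of 27305 promoters in the table, and 0 of 15 matched falls. A looser NF-kB consensus, which overlaps the first motif, was present in 47.1% of those 17 genes and 26.0% of the 77 matched rises. It was present in 11.7% of the 7078 tested genes and 6.67% of the 15 matched falls. The AP-1 motif TGANTCA was present in 17.6%, 6.49%, 3.77% and 0.0% of the same sets. The motifs were chosen after the changes were known, a match describes letters and not a site of binding, and no test was made. Each line below is 100 bases, read 5′ to 3′ in the direction of the gene, with matches to either kB motif in capitals.
CXCL8, chr4:73740428-73740527, plus strand: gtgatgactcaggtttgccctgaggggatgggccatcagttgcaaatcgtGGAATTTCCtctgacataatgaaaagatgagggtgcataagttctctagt
TNFRSF9, chr1:7940863-7940962, minus strand: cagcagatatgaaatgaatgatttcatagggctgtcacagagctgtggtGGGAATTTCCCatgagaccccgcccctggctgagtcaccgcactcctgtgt
CXCR4, chr2:136118300-136118399, minus strand: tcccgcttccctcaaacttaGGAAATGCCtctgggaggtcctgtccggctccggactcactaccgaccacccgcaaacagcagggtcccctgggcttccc
LTB, chr6:31582462-31582561, minus strand: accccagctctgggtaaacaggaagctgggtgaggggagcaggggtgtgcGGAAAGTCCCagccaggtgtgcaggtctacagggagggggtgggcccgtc
NFKBIA, chr14:35404781-35404880, minus strand: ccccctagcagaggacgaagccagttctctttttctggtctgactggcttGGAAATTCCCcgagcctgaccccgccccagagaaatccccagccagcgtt
TNFAIP3, chr6:137867154-137867253, plus strand: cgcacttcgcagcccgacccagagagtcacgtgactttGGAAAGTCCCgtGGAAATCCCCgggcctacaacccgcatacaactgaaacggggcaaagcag
EBI3, chr19:4229406-4229505, plus strand: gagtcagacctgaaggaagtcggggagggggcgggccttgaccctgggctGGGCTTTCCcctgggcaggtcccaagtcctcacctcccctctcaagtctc
TNFAIP3 holds a pair of matches separated by 2 bases. NFKBIA has a further match to GGNNTTTCC outside the printed window, 242 bases before its start. In CXCL8 the match begins 91 bases before the start and an AP-1 motif lies 137 bases before it, within the lower case letters.

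In the lists that follow, called changes were scattered, and which rises depend on NF-kB was not tested. As 1.1% of all features rose, 1 riser in a list says little about that list. DRAM1, a lysosomal membrane protein of the p53 and autophagy programme, went from 7.39 and 7.62 to 9.98 and 9.93 (2.45 ± 0.16, limma adjusted p = 1.56e-06) and was the 1 riser among 23 autophagy and lysosome genes. GADD45A, a stress-induced growth arrest gene, went from 9.56 and 9.55 to 10.84 and 10.81 (1.27 ± 0.14, adjusted p = 0.000328) and was the 1 riser among 16 p53 target genes. CDKN1A, the p21 inhibitor of the cell cycle, had 7.35 and 8.65 against 8.64 and 9.12, so that untreated replicate 2 lay inside the CD153-Fc range, and was not called (0.88 ± 0.32, adjusted p = 0.218). CDK6, a kinase that drives entry into S phase, went from 8.47 and 8.90 to 9.70 and 9.75 (1.04 ± 0.18, adjusted p = 0.00999) and was the 1 riser among 21 cyclin and kinase genes. Its call was lost without either CD153-Fc array.

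Among 17 AP-1 and immediate early genes 2 rose, where 1.1% of all features did. JUN went from 9.79 and 10.47 to 10.96 and 11.26 (0.98 ± 0.20, limma adjusted p = 0.036) and BATF, a lymphocyte AP-1 partner, from 11.80 and 12.39 to 12.89 and 13.01 (0.86 ± 0.17, adjusted p = 0.0288). Both calls were lost without either CD153-Fc array, and under median scaling 0 of the list were called. JUNB, an AP-1 gene abundant in this lymphoma, was not called (0.20 ± 0.18, adjusted p = 0.626). Of 20 genes tied to ALK lymphoma 4 rose, namely IL2RA, IL22, CD274 and the mucin MUC1 (0.81 ± 0.17), and 1 of the list was called under median scaling. The other kept probes of MUC1 were not called. BATF3 (0.59 ± 0.16, adjusted p = 0.108) and IRF4 (-0.45 ± 0.28, adjusted p = 0.465), transcription factors of CD30-positive lymphoma, were not called.

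Most lists of growth and housekeeping genes held no called member, which says little about a single list where 1.37% of all features were called. In 25 of the 50 gene lists, members were tested and 0 were called by limma, which took in 447 different genes with a median change of 0.02, and 41 of them (9.17%) were higher and 27 (6.04%) lower at an unadjusted p under 0.05, against 7.61% and 7.38% of all features. They included 33 replication genes (median -0.08), 34 mitosis genes (-0.06), 26 genes of MYC and ribosome biogenesis (-0.06), 38 cytosolic ribosomal protein genes (-0.01), 32 oxidative phosphorylation genes (-0.02) and 19 glycolysis genes (-0.01). MYC itself stood at 12.32 and 12.31 in untreated cells and at 12.12 and 12.33 with CD153-Fc (-0.09 ± 0.14, adjusted p = 0.787). Hypoxia genes had the highest median of these lists with at least 15 tested members (0.28, with 6 of 15 higher at an unadjusted p under 0.05), led by VEGFA, whose untreated arrays were at 6.54 and 8.11 and whose CD153-Fc arrays were at 8.58 and 8.46 (adjusted p = 0.135). All lists together held 760 tested genes, of which 41 rose and 5 fell, while over all features 1.1% rose and 0.275% fell. The lists were chosen with earlier results of these data known, so the 41 rises are not independent support.

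**Figure D3:**
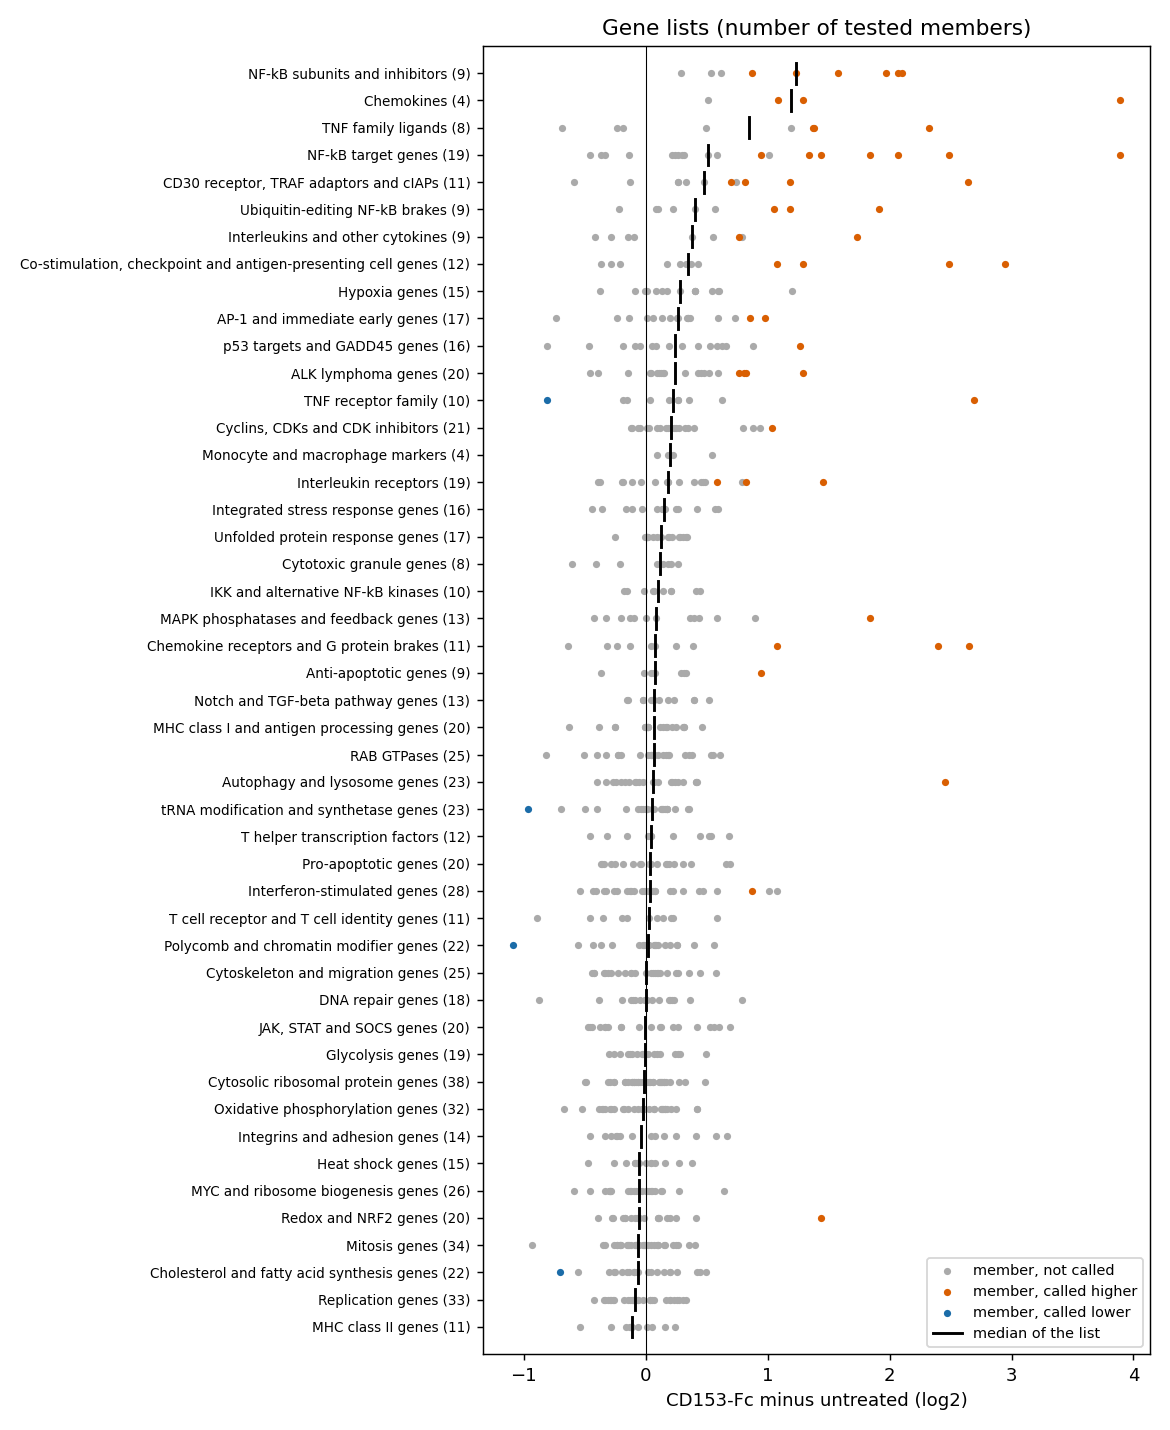
Change with CD153-Fc (log2, horizontal axis) of each tested member of the gene lists with at least 4 tested members, in order of the list's median (black bar), with called rises in orange, called falls in blue and the rest in grey. NF-kB subunits and inhibitors have the highest median (1.23), and the medians of the ribosomal, respiratory, replication and mitosis lists lie around 0.

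The largest rises outside these lists were NFE2L3, a transcription factor of the NRF family (7.20 and 6.64 against 8.94 and 8.78, 1.93 ± 0.20, detected on 1 of 2 untreated arrays), and PTGER4, the prostaglandin E2 receptor EP4 (8.78 and 8.77 against 10.32 and 10.55, 1.65 ± 0.16). NAMPT, the rate-limiting enzyme of NAD salvage, went from 11.36 and 11.28 to 12.853 and 12.998 (1.61 ± 0.16, limma adjusted p = 8.8e-05), and its second probe rose by 2.08. GPR84, a receptor for medium-chain fatty acids, went from 10.94 and 10.60 to 12.31 and 12.42 (1.59 ± 0.18, adjusted p = 0.000323). TMOD1, an actin-capping protein, was not detected in untreated cells (6.06 and 6.55) and was at 7.85 and 7.94 with CD153-Fc, at least 2.25-fold higher (adjusted p = 0.00238). In each of these genes the groups were apart on all arrays, and the TMOD1 call was lost without CD153-Fc replicate 2 (adjusted p = 0.0667). Probes without a gene symbol also ranked high, with ILMN_1776181 at 9.001 and 9.415 against 13.001 and 13.143 (3.86 ± 0.15, adjusted p = 2.94e-08). ILMN_1681644 was not detected in untreated cells and was at least 4.09-fold higher with CD153-Fc. In all, 13 rises, 9 of them named genes, were not detected on either untreated array. They passed the detection filter only through arrays of treated cells. Their place among the rises of a list is therefore no independent support.

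Second probes gave a partial check. The named called genes included 32 with another kept probe, 36 such probes in all, of which 32 had the same sign, 12 were called in that direction and 0 were called in the opposite one. The probes with the opposite sign belonged to CEP19, ING5, POFUT1 and TANK. All called second probes belonged to rises. Among the falls, the other probe gave 0.06 in CEP19, -0.26 in DDX51, -0.35 in MBTD1 and -0.98 in PCDH18. It gave 0.28 in POFUT1, -0.55 in SLC22A4 and -0.02 in ZNF394, and was not called in any of these falls.

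The falls were fewer and smaller, and 0 of them kept their call under every setting. ZNF69, a zinc finger gene, went from 11.51 and 11.11 to 10.16 and 10.29 (-1.08 ± 0.17, limma adjusted p = 0.00468), the smallest adjusted p among the falls. GPRIN3, a gene linked to G protein signalling, was at 7.39 and 7.59 in untreated cells and was not detected with CD153-Fc (6.198 and 6.199), at least 1.58-fold lower (adjusted p = 0.037), a call also lost without untreated replicate 1. SMIM43 went from 8.57 and 8.52 to 7.65 and 7.11 (-1.16 ± 0.23) and SGSM1, a modulator of RAB GTPases, from 9.42 and 9.59 to 8.48 and 8.51 (-1.01 ± 0.19). In these genes the CD153-Fc arrays were the lower pair without overlap.

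Falls in the gene lists were single members, where 0.275% of all features fell, and say little about a list. MBTD1, a reader of methylated histones, was the 1 fall among 22 polycomb and chromatin genes (8.70 and 8.48 against 7.16 and 7.86, -1.08 ± 0.24, limma adjusted p = 0.047). TRMT6, a subunit of a tRNA methyltransferase, was the 1 fall among 23 tRNA genes (8.45 and 8.02 against 7.35 and 7.19, -0.96 ± 0.22, adjusted p = 0.0488). The TRMT6 call held under 1 of 12 other settings. HSD17B7, an enzyme of cholesterol synthesis, was the 1 fall among 22 cholesterol and fatty acid genes (12.69 and 12.35 against 11.89 and 11.75, -0.70 ± 0.15, adjusted p = 0.0414). BLK, a Src family kinase best known from B cells, went from 9.26 and 8.92 to 8.23 and 8.21 (-0.87 ± 0.19, adjusted p = 0.0409). No other B cell marker was measurable. These adjusted p-values lay close to the threshold, and all of these calls were lost without either CD153-Fc array. Those of BLK and TRMT6 were also lost without untreated replicate 1 (adjusted p of 0.0947 and 0.0881).

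Of the other falls, TMEM17 (-0.87 ± 0.17) and CEP19 (-0.85 ± 0.18) are genes of the primary cilium and its base, and DDX51 (-0.66 ± 0.14) is an RNA helicase of ribosome formation. POFUT1, which adds fucose to Notch receptors, gave -0.66 ± 0.14, while its second probe gave 0.28. PCDH18, a protocadherin, gave -0.82 ± 0.16 and its second probe -0.98, which was not called. RNASE2, a ribonuclease of eosinophils, gave -0.76 ± 0.17, SLC22A4, a carrier of ergothioneine, -0.82 ± 0.18, and the zinc finger gene ZNF394 -0.85 ± 0.19. SNAR-A1 gave -0.79 ± 0.15, but it belongs to a family of near-identical small RNA genes, so its signal cannot be assigned to 1 copy. CDKN2AIPNL gave -0.73 ± 0.14. The largest fall of all was an unnamed probe, ILMN_1824737, at -1.41 ± 0.31, whose call was lost with each array left out in turn. SLC22A4 and RNASE2 lost theirs without untreated replicate 1 as well as without either CD153-Fc array.

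The size of a change depended on which untreated array it was set against. Untreated replicate 2 lay between untreated replicate 1 and the CD153-Fc mean in 76 of the 112 rises and 22 of the 28 falls, and in 68.1% of all 4172 features without overlap. The median rise was 1.04 against untreated replicate 2 alone and 1.25 against untreated replicate 1 alone, and the median fall -0.70 and -0.95. Whether culture, handling or hybridization set the untreated arrays apart was not tested. The largest difference between duplicates among the rises was 0.98 in untreated cells (NFKB2) and 0.61 with CD153-Fc.

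**Figure D4:**
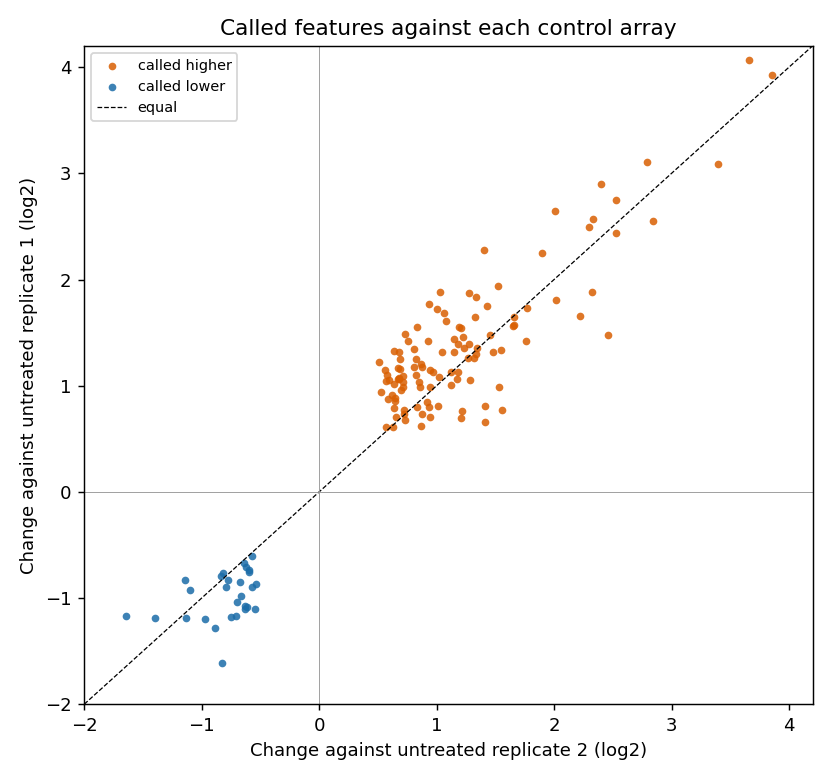
Change of the 140 called features (log2) against untreated replicate 2 alone (horizontal axis) and against untreated replicate 1 alone (vertical axis), rises in orange and falls in blue, with a dashed line where both are equal. Every point has the same sign on both axes, and 76 of the 112 rises lie above the line because untreated replicate 2 was the closer control.

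The response to the natural ligand was then set against that to T104 at the same mass concentration. The difference is between CD153-Fc and T104 arrays only. Its SE comes from the model of all 8 arrays, which includes the wider spread of the untreated duplicates. T104 gave higher levels in 55 features (0.54%) and lower levels in 7 (0.0687%). At an unadjusted p under 0.05 the counts were 405 and 441. Of the 112 features raised by CD153-Fc, 31 (27 named genes) were called higher still with T104, by 0.69 to 2.48, and 0 were called lower (1 at an unadjusted p under 0.05). The T104 mean was the higher one in 109 of the 112, with a median difference of 0.65 against -0.01 over all features. The rises were chosen on the same CD153-Fc arrays, which both comparisons share. The counts of called features were 17 without either CD153-Fc array, 11 without T104 replicate 1 and 10 without T104 replicate 2, all higher. A fit on the CD153-Fc and T104 arrays alone, without the untreated spread, called 412 features, 244 higher and 168 lower.

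Among the features raised by CD153-Fc, the largest gap to T104 was in CXCL8, at 10.77 and 11.38 with CD153-Fc and 13.46 and 13.65 with T104 (2.48 ± 0.19, limma adjusted p = 4.93e-05). TNFRSF9 was at 10.02 and 10.07 with T104, 1.96 ± 0.21 above CD153-Fc (adjusted p = 0.000673), and SOD2 was at 13.69 and 13.68, 1.74 ± 0.16 above it (adjusted p = 0.00017). RGS1 was at 12.68 and 12.53 with T104 (1.71 ± 0.17 above CD153-Fc) and IL4I1 at 10.09 and 9.93 (1.62 ± 0.18). In these genes all T104 arrays lay above all CD153-Fc arrays. Other called differences included those of TNIP1, which was higher with T104 by 1.13 ± 0.16 (adjusted p = 0.00355), TRAF1 by 1.11 ± 0.17 (adjusted p = 0.0077), NFKBIA by 0.72 ± 0.13 (adjusted p = 0.026), TNFAIP3 by 0.81 ± 0.14 (adjusted p = 0.0171) and NFKB1 by 0.69 ± 0.13 (adjusted p = 0.0345).

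T104 was also above CD153-Fc in 23 features that were not called with CD153-Fc. CCND2, the cyclin D2 gene, was not detected in untreated cells (5.17 and 5.27) or with CD153-Fc (5.95 and 6.09) and was at 9.92 and 10.13 with T104, at least 9.10-fold above CD153-Fc (limma adjusted p = 1.57e-06). CCL20 was at 10.49 and 10.12 with T104 (2.55 ± 0.23 above CD153-Fc, adjusted p = 0.00017), and LTA, detected on 1 of 2 CD153-Fc arrays, was at 8.83 and 9.08 (2.15 ± 0.31, adjusted p = 0.0053). CCND2 and LTA passed the detection filter only with arrays of cells given T104, so that they were tested depended on their level there. Among the falls, BLK (-0.99 ± 0.19) and TNFRSF19 (-1.15 ± 0.16) were lower still with T104. TRMT6 was higher with T104 than with CD153-Fc, at 8.49 and 8.26 against 7.35 and 7.19 (1.11 ± 0.22, adjusted p = 0.0392). The concentrations were equal by mass and not by the number of binding sites, and no dose series was analysed here.

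**Figure D5:**
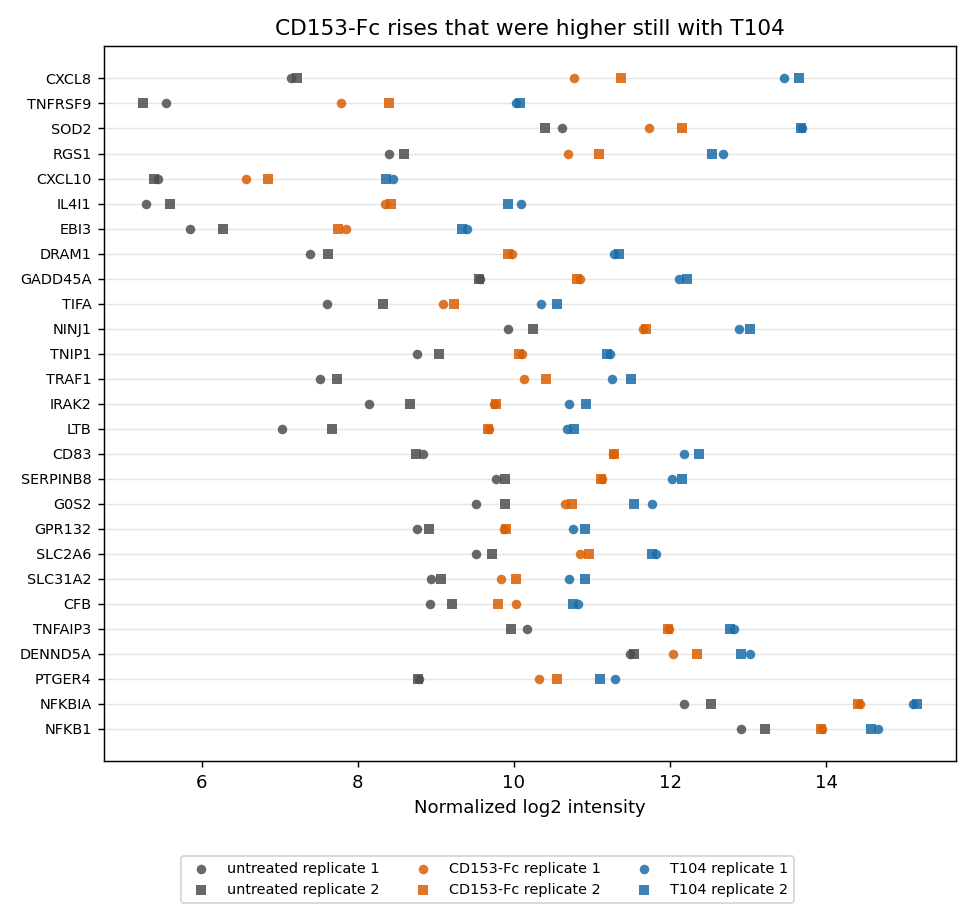
Normalized log2 intensity (horizontal axis) on each untreated array (grey), CD153-Fc array (orange) and T104 array (blue) for the 27 named genes that CD153-Fc raised and that were called higher still with T104, in order of the difference between the treatments. The difference runs from 2.48 for CXCL8 at the top to 0.69 for NFKB1 at the bottom.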

How the data were processed

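RNA from Karpas 299 cells was hybridized to Illumina HumanHT-12 v3 arrays. The authors deposited probe intensities on a linear scale, not normalized, with a detection p-value per probe and array. They also deposited processed intensities, which matched a quantile normalization of the first table (median absolute log2 difference 0.000126) and served as an alternative. BeadStudio is named in the series design text and GenomeStudio in the submitters' processing notes. Their versions were not stated.

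The deposited intensities were turned into log2 values by limma 3.58.1 under R 4.3.3 (neqc, background from the detection p-values, offset 16, quantile normalization). Probes with a detection p under 0.01 on at least 2 arrays were kept. Symbols came from the platform annotation, with 28093 probes having 1 symbol, 13 several and 20691 none. A limma model of all 8 arrays had a term for each group, and eBayes used an intensity trend (4 residual and 8.78 prior degrees of freedom). Mean intensity ran from 741 to 850 on the 4 arrays compared, and the number of arrays limits the precision. The fitting was tested on simulated data with the same spread in every group, so that test did not cover the wider spread of the untreated duplicates.

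Named genes were the 20 largest called rises and 15 largest called falls, called members of 50 gene lists, or the largest change where a list had none, and a fixed core set. Other genes named in the text were chosen after their values were seen. The members, the lists and the core set were chosen with earlier results of these data known. Alternatives covered normalization, background, offset, detection filter, fit, weights, probe rule, replicate block and each array left out.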

Additional observations from a re-analysis of the deposited data

How the results depend on the processing

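The main counts for CD153-Fc were 112 rises and 28 falls, and for T104 against CD153-Fc 55 and 7. CD153-Fc gave 90 calls (57 rises) with median scaling, 92 (13 falls) with no filter on detection, 12 falls with array quality weights, and 33 rises and 0 falls in a fit of 4 arrays. With 1 array left out, it gave 37 to 2624 calls (35 to 1424 rises and 1 to 1200 falls). T104 against CD153-Fc gave 412 calls (244 higher, 168 lower) in a fit of 4 arrays, 452 (246 and 206) with array quality weights, and 10 to 17 with 1 array left out, all 10 to 17 higher and 0 lower. Same-numbered arrays did not deviate together (correlations from -0.0987 to 0.00719). This shows no sign of pairing by number, but with 2 arrays a group it cannot exclude it. A fit with the replicate block gave 88 calls for CD153-Fc (81 rises and 7 falls) and 46 for T104 against CD153-Fc (42 higher and 4 lower). The other settings (no background correction, the authors' processed intensities, offset 50, detection on all 4 arrays, detection p under 0.05, no trend, every probe) moved the counts less than 1.5-fold. Among the named genes, 1307 of the values recomputed kept direction and call, 216 lost the call, 25 gained one, and 9 uncalled values of ALK, IRF4, JUNB, MYC, PDGFRA and PES1 changed sign. No called value changed sign. The causes were not tested. Probes not detected on either array of a group have only a bound there.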

Other observations

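Of the 96 named genes that rose, 55 were in none of the gene lists, and they are grouped here by function after their values were seen, with no test of the groups. Several serve innate immune signalling. IRAK2, a kinase below Toll-like and interleukin 1 receptors, went from 8.14 and 8.67 to 9.74 and 9.77 (1.35 ± 0.19, limma adjusted p = 0.0029). TIFA, an adaptor that binds TRAF proteins, went from 7.61 and 8.33 to 9.09 and 9.23 (1.19 ± 0.22). ZC3H12A, an RNase that degrades cytokine mRNA, rose by 1.04 ± 0.22, NLRP3, the inflammasome sensor, by 0.92 ± 0.18, TICAM2 by 0.92 ± 0.19, complement factor CFB by 0.85 ± 0.16 and OPTN, a ubiquitin-binding adaptor, by 0.74 ± 0.16. Of the other NLRP3 probes, 1 was called and 1 was not. These genes lost their calls without either CD153-Fc array.

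Other rises encode transcription factors and metabolic or transport proteins. HIVEP1, a zinc finger protein that binds kB sites, went from 7.78 and 7.90 to 9.04 and 9.31 (1.33 ± 0.17, limma adjusted p = 0.00108), a call lost without CD153-Fc replicate 2 (adjusted p = 0.0546). FOXO3 was not detected in untreated cells and was at least 1.72-fold higher, and MSC and ELL2 rose by 1.11 ± 0.21 and 1.03 ± 0.17. SLC2A6, a sugar transporter of the lysosome, went from 9.51 and 9.72 to 10.85 and 10.96 (1.29 ± 0.15, adjusted p = 0.000394) and kept its call under every setting. BDNF, a neurotrophin, was not detected in untreated cells (6.28 and 6.30) and was at least 2.05-fold higher with CD153-Fc (adjusted p = 0.00102). Receptor signalling genes included GPR132 (1.05 ± 0.15) and GNA15, a G protein of blood cells (0.97 ± 0.20). GPR132, GNA15, FOXO3 and MSC lost their calls without either CD153-Fc array, and ELL2 without CD153-Fc replicate 2.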
